A study of Mus musculus with 4 samples.

Results

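Neutrophils made up a small fraction of the immune cells sequenced from MC38 tumours, a mouse colon adenocarcinoma line grown in mice. A barcode was kept if it held 200 genes or more and no more than 20% of its UMIs (unique molecular identifiers, 1 per captured transcript) were mitochondrial, and neutrophils were those with at least 5 UMIs of S100a8 and S100a9 together, at least 1 UMI of Csf3r and none of Csf1r, Adgre1, Cd3d, Cd3e or Cd3g. The rule gave 283 neutrophils among 44184 kept barcodes, out of 47276 barcodes in all. Hosts were wild-type (WT) mice or knockout mice (labelled KO), and there were 2 libraries of CD45+ cells per genotype. The tumour line was the same in both groups and cells had been enriched with CD45 magnetic beads. Strain, sex, age, tumour size and the number of animals behind a library are not given in the sources used here, nor is the cell type in which the deletion acts, and p-values therefore measure only how far these 4 libraries differ, which can include technical variation.

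Neutrophils are short-lived phagocytes that leave the bone marrow with preformed granules and enter tissues through chemokine receptors such as CXCR2. In tumours they can be a source of chemokines, interleukin 1 and prostaglandins, and interferons change their programme by inducing guanylate-binding proteins, immunity-related GTPases and the T-cell attractants CXCL9 and CXCL10.

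The neutrophils numbered 73 in WT 1, 32 in WT 2, 140 in KO 1 and 38 in KO 2, with 126324, 52335, 258972 and 66747 UMIs in all. Their median depths of 1495, 1602, 1468 and 1785 UMIs were alike and far below the 6052 to 12133 UMIs of all kept barcodes. The deepest neutrophil barcode of WT 1, WT 2, KO 1 and KO 2 held 9361, 2548, 21712 and 3372 UMIs. That was 7.41%, 4.87%, 8.38% and 5.05% of the library's neutrophil UMIs. Levels are given as CPM, a gene's UMIs per 1000000 UMIs summed over the neutrophils of a library. KO 1 stood apart in mitochondrial genes, which summed to 15924 CPM in its neutrophils against 3401 to 4591 CPM in the other libraries. Per cell the gap was smaller, with a median mitochondrial share of 0.545% in KO 1 against 0.243% to 0.314%. The highest KO 1 neutrophil was at 16.6%. Between 21 and 49 kept barcodes were shared by any pair of libraries, and none was a neutrophil in both.

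The S100a8 and S100a9 UMIs that chose the cells had medians of 83, 97.5, 44.5 and 85.5 per neutrophil in WT 1, WT 2, KO 1 and KO 2, and 0 in the other barcodes. Near the minimum of 5, 14 members had 5 to 7 such UMIs, 13 of them in KO 1, and 8 barcodes that met the rest of the rule had 3 or 4. A further 182 barcodes met the rule but for a UMI of Csf1r or Adgre1, 203 but for having no Csf3r and 35 but for a Cd3 UMI.

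Neutrophil markers that the rule did not use were frequent in these cells. Retnlg, a resistin-like secreted protein of circulating neutrophils, had a UMI in 43.8% and 62.5% of the WT 1 and WT 2 neutrophils and in 20.7% and 36.8% of those of KO 1 and KO 2, against at most 0.816% of gated macrophages. Hdc, the enzyme that makes histamine, was seen in 81.2% to 90.4%, G0s2, an inhibitor of fat breakdown, in 65.6% to 76.3%, and the chemokine receptor gene Cxcr2 in 52.1% to 71.9%. In gated macrophages these 3 genes were found in at most 2.4% of cells, although macrophages were sequenced several times deeper. Among genes of at least 200 CPM in the neutrophils of every library, the highest ratios to all other barcodes were 871 for Retnlg, 652 for S100a9, 562 for G0s2, 530 for Stfa2l1, a cysteine protease inhibitor of the stefin family, 503 for the protease gene Asprv1, and 435 for Cxcr2. Since all of these cells were chosen by expression, the ratios are a description and carry no test.

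Genes of the primary granules, made early in the marrow, were hardly detected, with at most 1 UMI per library over the list of 6, and those of the secondary granules were uneven. Mpo and Elane, of the primary granules, and Camp and Ngp, of the secondary granules, had no UMI in any of the 283 cells. The largest library, with 140 neutrophils and no such cell, allows a share of up to 2.14% of cells with a UMI, which limits detection at this depth and not expression. Ltf, the secondary granule protein lactoferrin, was seen in 0 to 7.89% of neutrophils per library. The 10 secondary granule genes together summed to 3673, 2656, 1209 and 2172 CPM in WT 1, WT 2, KO 1 and KO 2, mostly from Lcn2, described among the genes lower in KO, Hp and Mmp8. Hp, the haemoglobin-binding protein haptoglobin, was at 997, 1338, 517 and 1258 CPM, and Mmp8, a neutrophil collagenase, at 491, 134, 131 and 180 CPM, both with overlapping groups. Siglecf, a surface lectin described on some tumour neutrophils, was seen in 2.74% and 3.12% of WT neutrophils, 0.714% of KO 1 and none of KO 2. The level of Cxcl2, a ligand of CXCR2, was 32322 and 31356 CPM in WT 1 and WT 2 and 27435 and 34099 CPM in KO 1 and KO 2, and the groups overlapped.

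How much neutrophils contributed to the infiltrate was asked next. They were 0.843% of kept barcodes in WT 1 (exact 95% binomial interval 0.661% to 1.06%), 0.363% in WT 2 (0.248% to 0.512%), 0.814% in KO 1 (0.685% to 0.959%) and 0.400% in KO 2 (0.283% to 0.549%). The 2 libraries of a genotype differed by more than counting error, and the genotypes did not separate. The mean was 0.603 ± 0.339% in WT and 0.607 ± 0.292% in KO (SD, n = 2 each), a difference of 0.00406 percentage points with p = 1 by a two-sided exact permutation test, whose smallest possible p here is 0.333. Intervals cover counting error only.

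**Figure D1:**
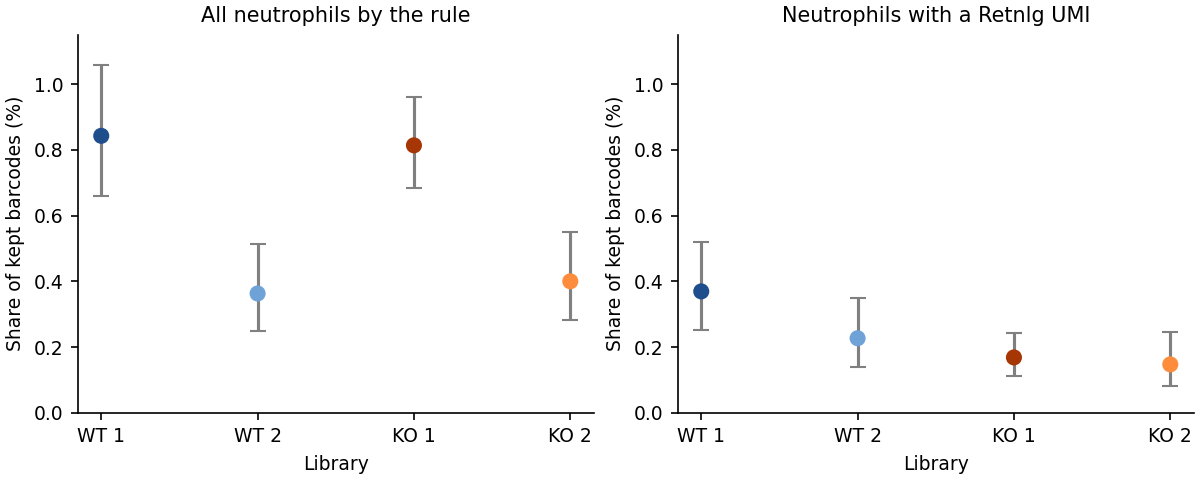
Neutrophils as a share of kept barcodes (%, y axis) in each library (x axis), by the rule (left) and with a Retnlg UMI in addition (right); points are libraries and bars exact 95% binomial intervals. On the left WT 1 (0.843%) and KO 1 (0.814%) lie above WT 2 and KO 2, and on the right both KO libraries (0.169% and 0.147%) lie below both WT libraries (0.369% and 0.227%).

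With a UMI of Retnlg required in addition, the share was 0.369% and 0.227% in WT 1 and WT 2 against 0.169% and 0.147% in KO 1 and KO 2. The groups then did not overlap, with a difference of -0.140 percentage points and the smallest p the exact permutation test allows, 0.333. With a gate that also left out any cell with a UMI of C1qa, C1qb, C1qc, Cd79a, Ms4a1, Ncr1, Flt3, Trac or Mcpt8, the numbers were 33, 12, 16 and 3 neutrophils, and the difference was -0.196 percentage points, again at p = 0.333 in the exact test. Both gates move with other values: KO neutrophils held more C1q UMIs, and fewer of them had a Retnlg UMI.

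That level of macrophage RNA was measured in every library. The complement genes C1qa, C1qb and C1qc, which macrophages make, summed to 491 and 535 CPM in the neutrophils of WT 1 and WT 2 and to 1884 and 1109 CPM in those of KO 1 and KO 2, or 9.82%, 8.38%, 23.2% and 15.4% of their level in all other barcodes of the same library. C1qa had a UMI in 27.4%, 25%, 55% and 55.3% of neutrophils, and in 29.6%, 34.1%, 65.5% and 53.1% of gated T cells, which should lack it. The whole list of 12 macrophage markers summed to 2802 and 2159 CPM in WT neutrophils and 6850 and 3805 CPM in KO neutrophils, against 15033 to 24684 CPM in other barcodes. Of its 8 members with enough UMIs to be tested 0 passed, and 7 were higher in both KO libraries, as were 19.8% of all genes tested. T cell markers summed to 0 and 19.1 CPM in WT and 139 and 105 CPM in KO, NK cell markers to 0 to 105 CPM, and the 6 eosinophil markers had no UMI in any library.

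Expression in KO and WT neutrophils was then compared over 1425 genes, with UMIs summed per library. A single gene, Cxcl10, passed the adjusted threshold of 0.05 in edgeR's quasi-likelihood test, which is 0.0702% of the genes tested. It was higher in KO, and no gene was lower at that threshold. At an unadjusted p under 0.05, 95 genes were higher (6.67%) and 48 lower (3.37%), and DESeq2 called 1 gene higher, Irf1, and 1 lower, Lcn2.

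Cxcl10 (ENSMUSG00000034855) encodes a chemokine that attracts activated T and NK cells through CXCR3. Its level was 95 CPM in WT 1, 0 in WT 2, 1406 in KO 1 and 1423 in KO 2, from 12, 0, 364 and 95 UMIs. Both KO libraries were far above both WT libraries, with a log2 change of 4.48 ± 0.62 (SE, n = 2 against 2; adjusted p = 0.0449, edgeR quasi-likelihood, Benjamini-Hochberg). Few cells carried it: a UMI was found in 3 of 73, 0 of 32, 42 of 140 and 7 of 38 neutrophils, and the single highest cell held 10, 0, 94 and 50 of those UMIs. The other barcodes held 95.5, 143, 478 and 432 CPM, so neutrophils were at or below the level of their surroundings in WT and above it in KO. The call was lost with DESeq2 (adjusted p = 0.318), with free RNA subtracted (0.216), with a Retnlg UMI required (0.0768) and with the replicate number as a block (0.347). The log2 change stayed between 3.85 and 5.88 over the 15 of 17 alternatives that kept a WT UMI of Cxcl10, and adjusted p ran from 1.23e-20 to 0.347 over all 17. The other 2, without WT 1 and without cells holding C1q or lymphoid UMIs, left WT at 0 UMIs; their fitted changes depend on the prior count and are no measure of size, and the call passed in both (adjusted p = 0.0208 and 1.68e-06, the second over 340 genes and with 3 cells in KO 2).

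**Figure D2:**
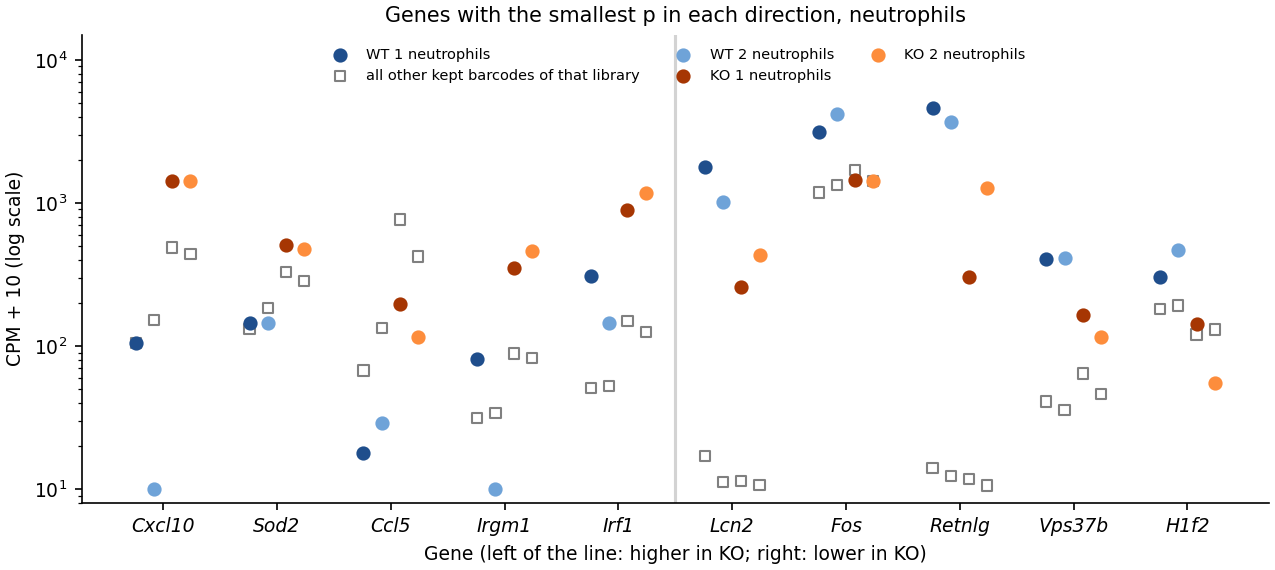
Level of the 5 genes with the smallest p in each direction (x axis) as CPM + 10 on a log axis; filled points are the neutrophils of each library and open squares all other kept barcodes of the same library. Cxcl10 in KO neutrophils (1406 and 1423 CPM) lies above WT neutrophils and above the other barcodes, whereas Ccl5 lies below the other barcodes in all 4 libraries.

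The 250 bases upstream of the start sites of Cxcl10, Irgm1 and Irf1 are shown for the letters of known interferon elements. They were read from the RefSeq promoter table of GRCm38.p6 on the strand of the gene. These 3 interferon-inducible genes were picked from the 5 with the smallest p among those higher in KO. Sod2 and Ccl5, also among those 5, were not scanned. Capitals mark matches on either strand to the core of the interferon-stimulated response element (TTTC, any 2 bases, TTTC) or the gamma-activated site (TTC, any 3 bases, GAA). The windows were chr5:92348890-92349139 (minus strand) for Cxcl10, chr11:48871421-48871670 (minus strand) for Irgm1 and chr11:53769764-53770013 (plus strand, the first of 2 listed starts) for Irf1.
Cxcl10: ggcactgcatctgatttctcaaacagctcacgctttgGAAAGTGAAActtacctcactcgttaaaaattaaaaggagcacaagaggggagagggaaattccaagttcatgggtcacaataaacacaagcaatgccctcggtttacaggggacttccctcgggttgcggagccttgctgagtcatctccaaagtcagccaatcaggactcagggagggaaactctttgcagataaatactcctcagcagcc
Irgm1: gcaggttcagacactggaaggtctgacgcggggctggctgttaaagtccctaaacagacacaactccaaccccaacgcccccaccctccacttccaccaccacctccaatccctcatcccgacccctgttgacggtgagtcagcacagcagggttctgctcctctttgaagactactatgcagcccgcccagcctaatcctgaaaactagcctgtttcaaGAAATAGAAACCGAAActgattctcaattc
Irf1: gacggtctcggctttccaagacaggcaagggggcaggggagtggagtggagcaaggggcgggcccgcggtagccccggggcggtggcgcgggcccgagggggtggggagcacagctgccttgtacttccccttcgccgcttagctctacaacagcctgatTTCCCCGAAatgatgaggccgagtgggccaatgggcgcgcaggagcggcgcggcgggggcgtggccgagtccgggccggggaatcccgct
Cxcl10 held 1 response element match, GAAAGTGAAA, from -213 to -204 relative to the start site. Irgm1 held 2 that overlap, GAAATAGAAA from -30 to -21 and GAAACCGAAA from -24 to -15. Irf1 held the gamma-activated match TTCCCCGAA from -90 to -82. The window of its second listed start, chr11:53770223-53770472, held neither element. Of the other genes scanned, Gbp2 held the response element core and Gbp5 both elements, while Ifitm1, Lcn2 and Retnlg held neither. Among 32851 promoters of the same length, 2.98% held the response element core and 7.02% the gamma-activated site. Since the genes scanned were picked, these shares beside their matches are a description and no test. A match describes letters only, and binding was not measured.

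The other 4 genes with the smallest p among those higher in KO did not pass. Irf1, a transcription factor induced by interferon gamma, stood at 301 and 134 CPM in WT 1 and WT 2 and at 880 and 1169 CPM in KO 1 and KO 2 (log2 change 2.12 ± 0.44, adjusted p = 0.148), and it passed in 6 of 17 alternatives. Irgm1, an interferon-induced GTPase, was at 71.2, 0, 344 and 449 CPM (2.99 ± 0.61, adjusted p = 0.148). In every library the level of Irf1 in neutrophils was above that of the other barcodes, which ran from 41.0 to 140 CPM. Sod2, the mitochondrial superoxide dismutase, was at 135, 134, 498 and 464 CPM, and Ccl5, a chemokine that T cells make in quantity, at 7.92, 19.1, 185 and 105 CPM, both with adjusted p = 0.148. Ccl5 was below the level of the other barcodes in each library, 57.4, 124, 756 and 412 CPM, and was seen in 77.1% and 67.2% of gated T cells of KO 1 and KO 2. Once each library's profile of other barcodes had been subtracted in the proportion of its C1q ratio, as free RNA, too few Ccl5 UMIs remained for a test, whereas Irf1 was at 2.32 and Irgm1 at 3.16 on the log2 scale (adjusted p = 0.310 and 0.324).

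Interferon gamma response genes were mostly higher in KO neutrophils. All 28 members of the list had a UMI and 17 could be tested; 0 passed, 13 of the 17 were higher in both KO libraries, against 19.8% of all genes tested, and 1 was lower in both, against 20% of all. Their median log2 change was 1.95, beside 0.01 over all genes tested. A gene high in 1 genotype only can pass the filter through it, so the filter can raise this median and those of the other lists. Without the filter the median over all genes was 0.32, and none is given for the list. The count was also made without the filter: 19 of 28 were higher in both KO libraries, against 14.2% of all genes with a neutrophil UMI, and 1 was lower in both, against 10.8%. The list was chosen with earlier results of these data known. Its summed level was 4093, 2484, 7460 and 9349 CPM in the neutrophils of WT 1, WT 2, KO 1 and KO 2, and it was higher in KO in the other barcodes too, at 1524, 1656, 4268 and 3642 CPM. Macrophage markers in the neutrophils moved with it, from 2802 and 2159 CPM in WT to 6850 and 3805 CPM in KO. After the subtraction of free RNA the median log2 change of the 17 members tested was 2.07, beside 0.02 over all genes tested, and 0 passed. That median was taken under the same kind of filter. Gbp2, a guanylate-binding protein of antimicrobial defence, was at 348 and 38.2 CPM in WT 1 and WT 2 and 1120 and 1543 CPM in KO 1 and KO 2 (log2 change 2.56 ± 0.60, adjusted p = 0.182). A UMI of Gbp2 was found in 20.5%, 3.12%, 55.7% and 50% of the neutrophils, so the groups did not overlap in the share of cells either. Gbp5, a relative of Gbp2 chosen here after its values were seen, was at 79.2, 0, 347 and 554 CPM (3.01 ± 0.64, adjusted p = 0.148). Ly6a, a surface protein that interferons raise, was at 135, 57.3, 680 and 330 CPM and below the other barcodes in each library. Socs3, an inhibitor of cytokine signalling in the same list, lay the other way, at 1203, 1127, 606 and 929 CPM (-0.62 ± 0.34, adjusted p = 0.591). The receptor subunit gene Ifngr1 and the kinase gene Jak2 had overlapping groups, with log2 changes of -0.39 and -0.12.

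The interferon gamma list took a median of 3 and 2 UMIs per 1000 in single neutrophils of WT 1 and WT 2, and 6 and 5 in KO 1 and KO 2, after each cell was thinned to 1000 UMIs. Within libraries its Spearman correlation over cells with the type I interferon list was 0.378, 0.274, 0.496 and 0.442 (70, 32, 125 and 36 cells), and with the macrophage marker list -0.06, 0.005, 0.025 and 0.083. These are descriptions over cells that share a library and a fixed depth.

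**Figure D3:**
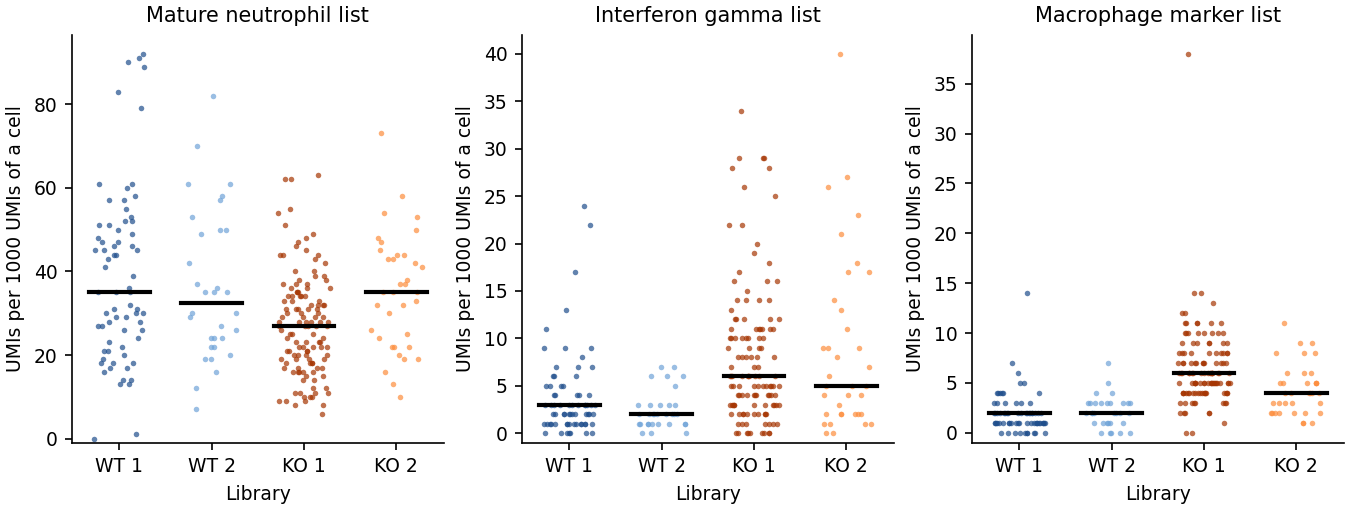
UMIs of 3 gene lists per 1000 UMIs of a cell (y axis) in single neutrophils of each library (x axis), each cell thinned to 1000 UMIs; points are cells and black lines medians. The median for interferon gamma genes is 3 and 2 in WT and 6 and 5 in KO, and that for macrophage markers 2 and 2 in WT and 6 and 4 in KO, whereas mature neutrophil genes overlap (35 and 32.5 against 27 and 35).

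Type I interferon genes had no called difference. Of 15 members tested 0 passed, 10 were higher in both KO libraries, against 19.8% of all genes tested, and 1 was lower in both, against 20%, with a median log2 change of 0.65 beside 0.01 over all genes tested. Without the filter, 16 of the 31 members with a UMI were higher in both KO libraries and 2 lower, against 14.2% and 10.8% of all genes with a neutrophil UMI. Rsad2, the antiviral enzyme viperin, was at 285 and 459 CPM in WT 1 and WT 2 and 776 and 854 CPM in KO 1 and KO 2 (1.19 ± 0.38, adjusted p = 0.270). Isg15, a ubiquitin-like modifier, was at 1480, 1070, 1935 and 2712 CPM (0.85 ± 0.32, adjusted p = 0.385). Ifitm1, a membrane protein that restricts viral entry, was the member lower in both KO libraries, at 3673 and 3458 CPM in WT and 2020 and 2082 CPM in KO (-0.79 ± 0.25, adjusted p = 0.264).

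Antigen presentation genes of class I were higher in both KO libraries for 14 of the 17 tested, against 19.8% of all genes tested, and 0 passed, with a median log2 change of 0.75. Without the filter it was 16 of 23, against 14.2% of all genes with a neutrophil UMI. B2m, the shared light chain, was at 2913 and 1701 CPM in WT 1 and WT 2 and 4027 and 3790 CPM in KO 1 and KO 2 (0.75 ± 0.31, adjusted p = 0.450). H2-D1, a heavy chain, was at 2707, 2580, 3352 and 3745 CPM, and Tapbp, which loads peptide, at 166, 153, 297 and 330 CPM. The H2 and Gbp families hold near-identical copies, so the level of a single member is uncertain. All of these were also higher in the KO libraries' other barcodes, where B2m was at 2111 and 2304 CPM in WT against 4377 and 3715 CPM in KO. Class II genes, typical of macrophages and dendritic cells, were low: Cd74, the class II chaperone, was at 435, 459, 2201 and 914 CPM in neutrophils and at 5155 to 8356 CPM in the other barcodes. Each of the 4 class II genes tested was higher in both KO libraries, as were 19.8% of all genes, and 0 passed; in KO 1 a single cell held 113 of the 570 Cd74 UMIs. The C1q genes moved with the class I and class II genes. After the subtraction of free RNA the log2 change of B2m was 0.74 (adjusted p = 0.581), and Cd74 had too few UMIs left for a test.

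Of the genes lower in KO none passed, and 2 are typical neutrophil products. Lcn2, the iron-trapping lipocalin of neutrophil granules, was at 1765 and 1013 CPM in WT 1 and WT 2 and at 247 and 419 CPM in KO 1 and KO 2 (-2.14 ± 0.43, adjusted p = 0.148). It passed in 8 of 17 alternatives, and 1 cell of WT 1 held 77 of that library's 223 UMIs. Retnlg was at 4615, 3650, 293 and 1258 CPM (-2.50 ± 0.55, adjusted p = 0.165), with 237 of 583 UMIs of WT 1 in 1 cell. The share of cells with a UMI of Retnlg, which a single cell cannot set, was lower in both KO libraries too. Fos, an immediate early transcription factor, was at 3135, 4165, 1429 and 1423 CPM (-1.33 ± 0.27, adjusted p = 0.148). Vps37b, of the endosomal sorting machinery, and the linker histone gene H1f2 complete the 5, with log2 changes of -1.52 and -1.78 and adjusted p = 0.182 for both.

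The lists around those genes did not all follow. Of 25 mature neutrophil genes tested, 7 were lower and 1 higher in both KO libraries, beside 20% and 19.8% of all genes tested, with a median log2 change of -0.23. G0s2 was at 7995 and 5809 CPM in WT 1 and WT 2 against 3939 and 6712 in KO 1 and KO 2, Hdc at 2169, 2159, 1788 and 2892 CPM, and Cxcr2 at 800, 1127, 533 and 1064 CPM, each with overlapping groups. Members lower in both KO libraries included Stfa2l1, at 1045, 1070, 471 and 449 CPM, and Wfdc21, at 800, 478, 243 and 225 CPM. Of 18 immediate early and heat shock genes 7 were lower and 0 higher in both KO libraries, with a median of -0.39. Junb was at 5082, 5331, 3139 and 4225 CPM and Dusp1, a phosphatase that ends kinase signals, at 4393, 4318, 2475 and 3701 CPM. Glycolysis and hypoxia genes were lower in both KO libraries for 8 of 20 and higher for 2, with a median of -0.21, and Aldoa, a glycolytic enzyme, was at 1053, 1242, 788 and 539 CPM (-0.74 ± 0.34, adjusted p = 0.508).

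Apart from Cxcl10, no gene of the chemokine list or of the other inflammatory mediators named here passed. Il1b, the cytokine interleukin 1 beta, had a UMI in 94.5% to 100% of neutrophils and stood at 20622 and 23655 CPM in WT 1 and WT 2 and 18732 and 31402 CPM in KO 1 and KO 2 (0.19 ± 0.28, adjusted p = 0.876). Of 12 chemokine genes tested, 4 were higher in both KO libraries and 0 lower, beside 19.8% and 20% of all genes tested. Ccl4, a chemokine that attracts T cells and monocytes, was among them at 3752, 2637, 6638 and 5513 CPM (0.93 ± 0.28, adjusted p = 0.236), while Ccl3, a related chemokine, was at 2185, 3344, 3541 and 1798 CPM with overlapping groups. Cd274, which encodes the checkpoint ligand PD-L1, was at 443, 363, 1070 and 809 CPM (1.22 ± 0.36, adjusted p = 0.236). Ptgs2, the cyclooxygenase that starts prostaglandin synthesis, was at 3499, 2293, 2255 and 2187 CPM (-0.38 ± 0.29), and Arg1, an arginine-degrading enzyme, at 1037, 363, 1382 and 749 CPM (0.57 ± 0.48). The NADPH oxidase genes, which make the oxidative burst, had 5 members tested, with 0 separated in either direction.

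Mitophagy genes, which serve the removal of damaged mitochondria, showed no called difference. Of 8 mitophagy genes tested, 1 was higher and 2 were lower in both KO libraries, beside 19.8% and 20% of all genes tested, with a median log2 change of -0.02. Sqstm1, an adaptor that links ubiquitin to the autophagosome, was at 253, 325, 255 and 315 CPM, and Map1lc3b, a membrane protein of the autophagosome, at 1053 and 1185 CPM in WT and 734 and 944 in KO (-0.41 ± 0.32, adjusted p = 0.709). Mitochondrially encoded genes had a median log2 change of 1.40 over 8 tested, 4 of them higher in both KO libraries, as were 19.8% of all genes tested. Without the filter it was 4 of 13, against 14.2% of all genes with a neutrophil UMI. KO 1 alone was far from the rest: mt-Co3, of cytochrome oxidase, was at 784, 726, 3433 and 1004 CPM.

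Neutrophils of 1 library also varied among themselves. They were divided by whether a Retnlg UMI was present, which gave 32 and 41 cells with and without in WT 1, 20 and 12 in WT 2, 29 and 111 in KO 1, and 14 and 24 in KO 2. Median depths were 1613, 1639.5, 1429 and 1812 UMIs with Retnlg and 1456, 1546.5, 1469 and 1733 without. Cells with Retnlg held more G0s2 in all 4 libraries, 12455, 7701, 5046 and 10997 CPM against 4271, 2685, 3582 and 4248 CPM without (WT 1, WT 2, KO 1, KO 2). Slpi, a secreted protease inhibitor, and Lcn2 were also higher with Retnlg in all 4. Cells without Retnlg held more Gbp2, 625, 101, 1383 and 2171 CPM against 17.4, 0, 302 and 451 CPM, and more Irf1, 465, 152, 990 and 1274 CPM against 104, 123, 540 and 985 CPM. All WT 2 neutrophils together held only 2 UMIs of Gbp2 and 7 of Irf1, too few to order the sides in that library. Il1a, of the interleukin 1 family, and Ccrl2, a receptor that binds chemerin, followed the same order in every library. Gbp2 and Irf1 were higher in KO than in WT libraries on both sides of the division. Over thinned cells, whole lists showed little of this order. The Spearman correlation of the mature neutrophil list with the interferon gamma list was -0.163, -0.151, 0.018 and -0.011 in WT 1, WT 2, KO 1 and KO 2. These values describe cells of 4 libraries and carry no test.

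**Figure D4:**
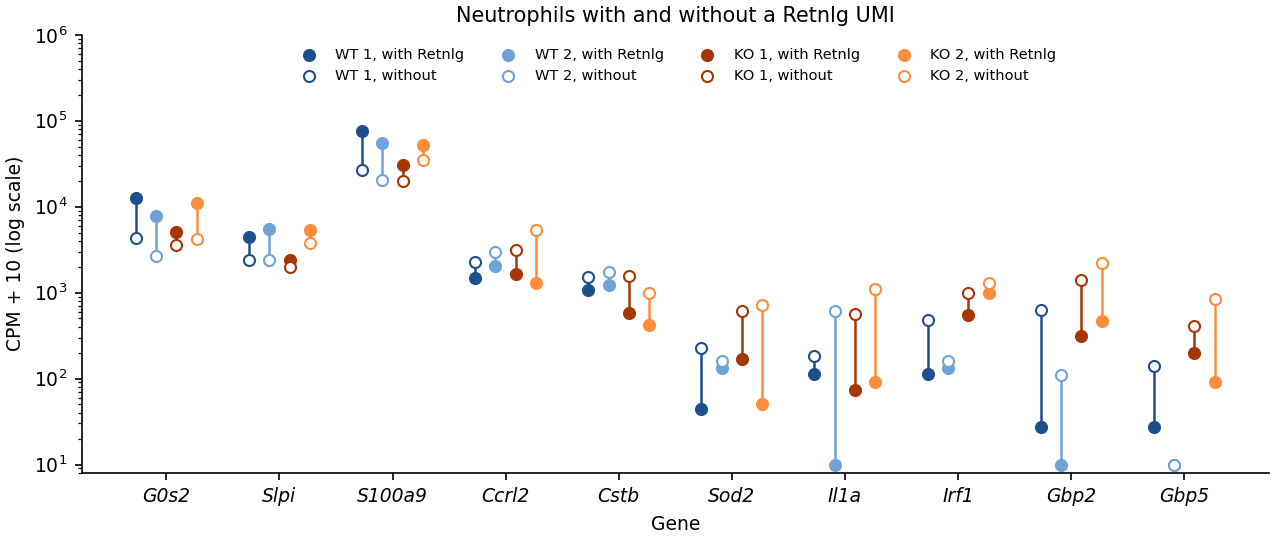
Level as CPM + 10 on a log axis (y axis) of 10 genes (x axis), picked after their values were seen, in neutrophils with a Retnlg UMI (filled) and without (open); each line joins the 2 sides in 1 library. G0s2 lies higher with Retnlg in all 4 libraries (12455 against 4271 CPM in WT 1) and Gbp2 higher without (625 against 17.4 CPM).

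Cells with a Cxcl10 UMI were likewise set beside those without in WT 1, KO 1 and KO 2. Gbp5 was at 499, 552 and 1606 CPM with Cxcl10 and 58.3, 216 and 298 CPM without, and Irgm1 at 333, 414 and 994 CPM against 58.3, 298 and 317 CPM. C1qa was at 166, 641 and 306 CPM with and 166, 616 and 391 CPM without. The values with Cxcl10 rest on 3 cells in WT 1 and 7 in KO 2, too few to compare C1qa there. The source of the Cxcl10 UMIs was not tested.

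The KO against WT difference in neutrophils was finally set against that in other myeloid cells of the same libraries, in a model with the library as a block. The 1933 gated monocytes had Ly6c2, Plac8 and Csf1r UMIs, and the 12605 gated macrophages had Adgre1, Csf1r and at least 5 C1q UMIs, none of them Csf3r. Against monocytes 12 of 8089 genes passed (0.148%), 6 in each direction (0.0742%), and against macrophages 8 of 11600 (0.069%), 4 in each (0.0345%). The change of Cxcl10 was larger in neutrophils, by 3.19 ± 0.59 on the log2 scale against monocytes (adjusted p = 0.000296) and by 2.57 ± 0.60 against macrophages (adjusted p = 0.0298, edgeR quasi-likelihood interaction tests). Its size is uncertain, since WT 1 and WT 2 neutrophils held only 12 and 0 UMIs of Cxcl10. Over 8 alternatives each, it ran from 2.16 to 14.1 against monocytes and from 1.62 to 16.5 against macrophages. Monocytes held 342, 580, 1069 and 919 CPM of Cxcl10 and macrophages 109, 160, 465 and 423 CPM, so both KO libraries were above both WT libraries in all 3 classes. For Irf1, Irgm1, Gbp2, Gbp5 and Sod2 the difference between classes did not pass.

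Ifitm1 went the other way. It was at 249 and 532 CPM in WT monocytes and 1044 and 793 CPM in KO monocytes, and at 78.5, 69.4, 325 and 176 CPM in macrophages, while it was lower in KO neutrophils. With each class fitted alone, Ifitm1 passed in macrophages (adjusted p = 0.0462, edgeR quasi-likelihood) but not in monocytes (0.384) or neutrophils (0.264). Its difference was -2.16 ± 0.47 against monocytes (adjusted p = 0.00488) and -2.58 ± 0.47 against macrophages (adjusted p = 0.000561). Ptgs2, Hcar2, a receptor for butyrate and niacin, and Plin2, a lipid droplet coat protein, also differed from monocytes, by -2.06, -2.01 and -2.00. With each class fitted alone, their log2 changes were -0.38, -0.34 and -1.31 in neutrophils, where none passed. In monocytes they were 1.74, 1.69 and 0.70. In monocytes Ptgs2 was at 223, 146, 665 and 492 CPM. Inhba, a subunit of activin, differed by -2.24 against monocytes and -2.26 against macrophages, and Acod1, which makes itaconate, by -2.36 against macrophages. These calls rest on both WT libraries: without WT 1 or without WT 2, 3 and 1 genes passed against monocytes and 0 and 1 against macrophages.

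**Figure D5:**
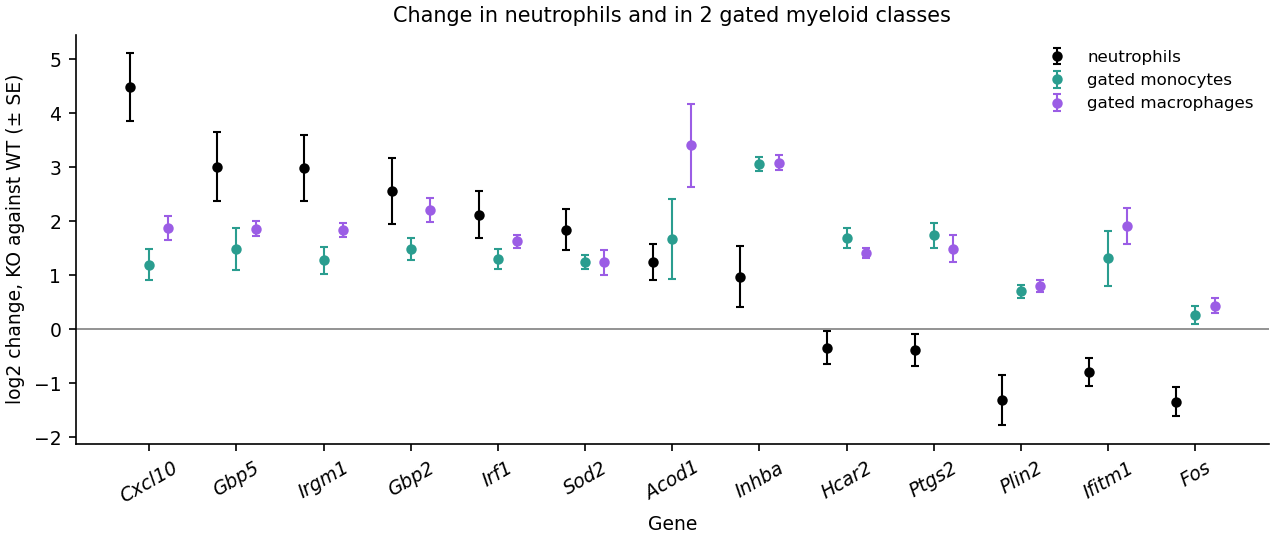
log2 change of KO against WT (y axis, ± SE) for 13 genes (x axis), picked after their values were seen, in neutrophils, gated monocytes and gated macrophages; each class was fitted alone on 4 library sums. Cxcl10 lies highest in neutrophils (4.48), and Ifitm1 is below 0 in neutrophils (-0.79) and above 0 in both other classes (1.32 and 1.92).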

How the data were processed

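UMI counts per gene and barcode of 4 droplet libraries (2 WT, 2 KO) were deposited by the authors as raw whole numbers. The file headers name Cell Ranger 5.0.0, and the submitters' processing notes name 5.0.1 and mm10. The sources used here do not say how cells were called or doublets treated, and no doublet caller was run. Members and gene lists were chosen with earlier results of these data known. UMIs were summed per library and tested with edgeR 4.0.16 (R 4.3.3; filterByExpr, TMM, robust quasi-likelihood test, Benjamini-Hochberg, threshold 0.05), which was tested on simulated data. Differences between cell classes were tested as class by genotype with the library as a block. DESeq2 1.42.0 was an alternative. Named genes were the 5 with the smallest p in each direction with non-overlapping groups and at least 20 CPM, up to 6 members per list by mean level, the 15 highest ratios to other barcodes and the genes leading each class difference; others are named as chosen after their values were seen. The targeted gene is not reported here. Neutrophil sums of 52335 to 258972 UMIs per library limit what could be called. Alternatives covered scaling, filters, gates, depth, libraries left out, a replicate block and, added after seeing the data, subtraction of free RNA and, for the class differences, leaving out the deepest 5% of neutrophils.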

Additional observations from a re-analysis of the deposited data

Results flagged for a closer look

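Several genes differed between neutrophils and the other 2 myeloid classes in their signed KO against WT change, by an interaction test at an adjusted p under 0.05 (values are log2 differences, neutrophils minus the other class). A difference can join opposite directions, as for Fn1 (1.45 in neutrophils and -0.93 in monocytes). Against gated monocytes the positive differences were Cxcl10 (3.19), Gzmf (12.7), Gzmg (13.3), Car4 (14.7), Mki67 (11.7) and Fn1 (2.28), and the negative ones Wfdc21 (-5.09), Ifitm1 (-2.16), Ptgs2 (-2.06), Inhba (-2.24), Hcar2 (-2.01) and Plin2 (-2.00). Against gated macrophages the positive ones were Cxcl10 (2.57), Mki67 (14.7), Car4 (14.7) and Cald1 (5.12), and the negative ones Ifitm1 (-2.58), Wfdc21 (-2.47), Acod1 (-2.36) and Inhba (-2.26).

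The very large values rest on few UMIs and are no measure of size. Gzmf, Gzmg, Car4 and Mki67 had 0 UMIs in WT neutrophils and 11, 5, 27 and 34 in KO neutrophils, and a fitted change from 0 depends on the prior count. By library, KO 1 and KO 2 held 7 and 4 of Gzmf, 0 and 5 of Gzmg, 13 and 14 of Car4, and 33 and 1 of Mki67. In the monocytes of WT 1 and WT 2, Gzmf was at 0 and 899 CPM and Gzmg at 0 and 451 CPM. A single KO 1 cell held 20 of the Mki67 UMIs, and a single KO 1 cell held 42 of the 44 Cald1 UMIs in KO. For Fn1, a single KO 1 cell held 94 UMIs. The size for Wfdc21 against monocytes rests on 0.422, 0, 0.601 and 9.31 CPM in the monocytes of WT 1, WT 2, KO 1 and KO 2, too few for a test of the monocyte change alone, and it ran from -6.86 to -2.65 over 8 alternatives, of which 4 passed. With the deepest 5% of neutrophils left out, Mki67, Cald1 and Fn1 no longer passed.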

How the results depend on the processing

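The number of genes higher and lower in KO neutrophils was 1 and 0. It was 18 and 2 with no filter on low counts (10243 genes, median log2 change 0.32), 1 and 1 with DESeq2, 7 and 1 with at least 20 S100a8 and S100a9 UMIs, 4 and 2 with the strict gate, 2 and 2 without the deepest 5% of cells, 0 and 0 with a Retnlg UMI required and 0 and 0 with free RNA subtracted. Leaving out a library gave 5 to 100 higher and 0 to 45 lower, the most without KO 2, where KO 1 alone stands for its group and is assumed to vary like the WT libraries. Total counts, relative log expression, thinning, the stricter mitochondrial limit and leaving out mitochondrial genes gave 1 and 0. The cause of these differences was not tested. The difference in share stayed within 1 SD of the main value under every alternative, from -0.236 to 0.244 percentage points with a library left out.

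Replicate numbers 1 and 2 occur in both genotypes, but nothing states that they pair libraries, and deviations of the libraries numbered 1 correlated at 0.0722 over 1425 genes. With the number as a replicate block 0 genes were higher and 0 lower, and the share differed by -0.0289 percentage points within number 1 and 0.0371 within number 2.

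Genes that differed from monocytes numbered 12, 25 with the replicate block in place of the library, and 1 to 24 with a library left out. Those that differed from macrophages numbered 8, 13 with total counts, 47 with the replicate block, 13 without the deepest 5% and 0 to 34 with a library left out. Of the 20 called differences between classes, 58 of 160 alternative values kept their direction but no longer passed, and 1 changed sign. For the KO against WT change within neutrophils, over 142 genes named or drawn, 162 of 2310 alternative values changed sign with no call on either side, 104 passed where the main value had not, and 4, all of Cxcl10, no longer passed. The difference of Cald1 from macrophages ran from -9.31 without KO 1 to 14.97 without WT 2 (against 5.12), and the change of Mmp12 within neutrophils from -0.28 to 2.53 with at least 20 S100a8 and S100a9 UMIs (adjusted p = 0.0355, edgeR).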
